A study of Mus musculus with 24 samples.

Results

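The 7 genes described here, Pcdhga9, Pcdhgb6, Pcdhga10, Pcdhgb7, Pcdhga11, Pcdhgb8 and Pcdhga12, were the last variable genes of the mouse gamma protocadherin cluster before its C-type genes. They were taken by symbol from a table of 14922 genes and are 7 of the 22 gamma genes in it, and all 7 were measured in every library. They were chosen by their place in the cluster and by their levels in MommeD43 against wild-type cells of both strains, where some had risen, so the MommeD43 differences of the members are described without a test. The strain differences and the correlations between lines were not used for the choice and were tested.

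RNA was sequenced from neural stem cells (NSCs) grown as adherent cultures from the cortex of mouse embryos at E14.5 and kept under 10 passages. MommeD43 is a missense allele of Smchd1, which encodes a chromatin repressor of the SMC family that is known to bind clustered genes. FVB_MD43 cells carried it, made by chemical mutagenesis, on FVB/NJ, and FVB_WT cells were Smchd1+/+ on FVB/NJ. B6GFP_MD43 cells carried the same change made by CRISPR-Cas9 in a Smchd1-GFP fusion on C57BL/6J, and B6GFP_WT cells carried the fusion without it. The labels list the B6GFP controls as Smchd1+/+ and the study lists them as Smchd1GFP/GFP, and the mutant groups were homozygous. Strain and GFP fusion differed together in every strain comparison and cannot be told apart. No treatment was given, every group had the same embryonic age, and lines came from separate embryos.

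The table had 24 columns, of which 2 (replicate 3 of FVB_MD43 and the batch 1 library of B6GFP_MD43 replicate 2) equalled the mean of the other columns of their group to within 8e-09 and were left out. This left 22 libraries of 17 lines: 6 of 5 lines in FVB_WT, 5 of 4 in FVB_MD43, 6 of 4 in B6GFP_WT and 5 of 4 in B6GFP_MD43. Batch 2 held FVB alone and batch 3 B6GFP alone, so the strains met only in batch 1. Depth relative to the deepest library had a median of 0.682 in batch 1, 0.165 in batch 2 and 0.558 in batch 3, and the absolute depth is unknown. The 6 NSC markers of the list were present in all groups, with a summed level of 12.14 to 12.72 log2 CPM (log2 of reads per gene after scaling every library to the same total). Of the microglia markers 1 of 5 was in the table, and in both strains the ranges of the wild-type and MommeD43 lines overlapped in the summed level of all 7 marker lists. All libraries were labelled female, and Xist was listed at -2.45 to 0.952 log2 CPM, over 3 in 0 libraries.

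Clustered protocadherins are cadherin-like adhesion proteins of the neuronal surface. Each variable gene of the gamma cluster has its own promoter and a large first exon that encodes the ectodomain, the transmembrane part and the start of the cytoplasmic tail, and this exon is spliced to constant exons shared by the whole cluster. Single neurons use a few of the variable promoters each, in a choice that involves CTCF, cohesin and promoter methylation, and the proteins meet their own kind on the neighbouring membrane, which serves self-recognition of dendrites and neuronal survival. The names alternate between an A-type and a B-type subfamily along the chromosome, while the C-type genes at the end of the cluster are regulated differently. In bulk RNA, fewer cells using a promoter and less RNA per cell cannot be told apart.

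On GRCm38.p6 the members lie on the plus strand of chromosome 18. The variable exon of Pcdhga9 (Entrez 93717) starts at 37736936, that of Pcdhgb6 (93703) at 37742094, that of Pcdhga10 (93722) at 37746993 and that of Pcdhgb7 (93704) at 37751600. Those of Pcdhga11 (93723), Pcdhgb8 (93705) and Pcdhga12 (93724) start at 37755731, 37761801 and 37765580. Neighbouring starts are 3779 to 6070 bp apart, whereas 40830 bp separate Pcdhga12 from Pcdhgc3, the first C-type gene. The variable exons are 2499 to 2961 bp long, and the 3 constant exons, of 59, 89 and 1971 bp, make up 41.7% to 45.9% of each spliced transcript.

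In this annotation 6 members were protein coding and Pcdhgb8 was a polymorphic pseudogene, a gene that is intact in some strains and disrupted in the reference strain, here C57BL/6J. The share of 50-base stretches of a variable exon that recur in another clustered protocadherin transcript was 11.9% in Pcdhgb6, 9.18% in Pcdhgb8, 3.83% in Pcdhga9, 2.67% in Pcdhgb7, 0.273% in Pcdhga10 and 0% in Pcdhga11 and Pcdhga12. The non-coding gene Gm26672 lies on the opposite strand over parts of Pcdhga10, Pcdhgb7, Pcdhga11 and Pcdhga12. Whether the counting used strand, and how it assigned reads of the constant exons, is not given in the sources used here, so reads of these genes and of Gm26672 cannot be told apart.

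Levels between genes were compared per kb of variable exon. In FVB_WT, Pcdhga11 was highest at 2.28 ± 0.31 log2 CPM per kb (SD, n = 5 lines), followed by Pcdhgb8 at 2.07 ± 0.28 and Pcdhgb6 at 2.0 ± 0.16. Pcdhgb7 (0.96 ± 0.08), Pcdhga10 (0.79 ± 0.44), Pcdhga12 (0.38 ± 0.34) and Pcdhga9 (0.01 ± 0.41) came lower. Neighbours in this order differed by less than the larger of their SDs, except for the step between Pcdhgb6 and Pcdhgb7. In B6GFP_WT the order was Pcdhgb6 at 2.04 ± 0.17 (n = 4 lines), Pcdhga11 at 1.86 ± 0.23, Pcdhgb7 at 0.96 ± 0.10, Pcdhga10 at 0.82 ± 0.13, Pcdhga12 at 0.24 ± 0.11, Pcdhga9 at -0.13 ± 0.06 and Pcdhgb8 at -1.14 ± 0.34. There the differences between neighbours were larger than both SDs, except for Pcdhgb6 and Pcdhga11. Pcdhgb8 was thus near the top in FVB_WT and last in B6GFP_WT. All were far below Pcdhgc3, which had 7.62 ± 0.14 log2 CPM per kb in FVB_WT and 7.59 ± 0.33 in B6GFP_WT.

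**Figure D1:**
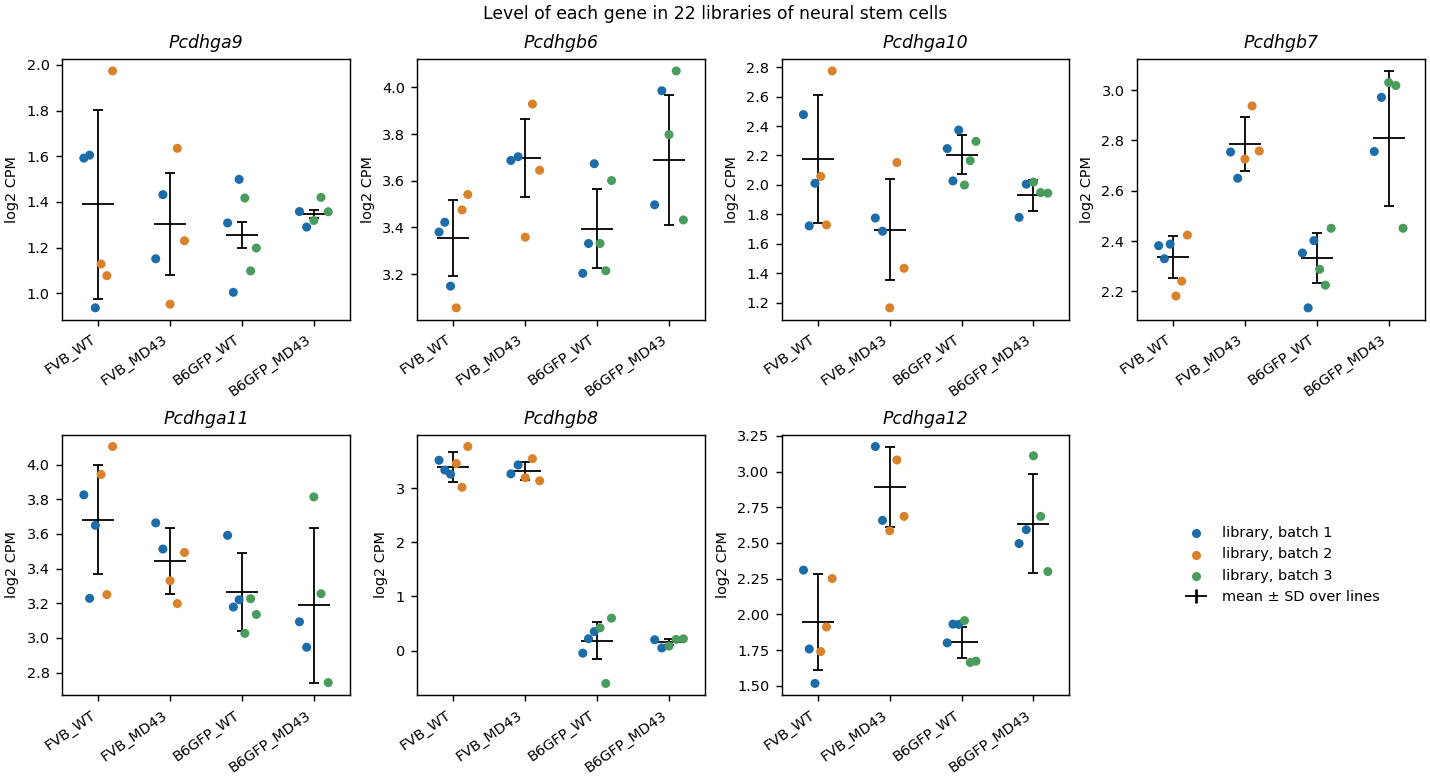
Level of each of the 7 genes in log2 CPM (vertical axis, its own scale in each panel) in the 22 libraries by group, coloured by batch, with the mean and SD over lines as bars. Pcdhgb8 sits between 3.02 and 3.775 in FVB libraries and between -0.609 and 0.599 in B6GFP libraries, and Pcdhga12 is higher in MommeD43 than in wild-type libraries of both strains.

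Pcdhgb8 was the member that differed between the strains, and it did so in both genotypes. In FVB_WT its line means were 3.52, 3.40, 3.26, 3.02 and 3.77 log2 CPM for replicates 1 to 5. In B6GFP_WT they were -0.05, 0.32, -0.13 and 0.60 for replicates 1 to 4. Every FVB line was thus more than 2 log2 units above every B6GFP line.

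MommeD43 lines showed the same split. FVB_MD43 replicates 1, 2, 4 and 5 had 3.27, 3.32, 3.55 and 3.14 log2 CPM of Pcdhgb8, and B6GFP_MD43 replicates 1 to 4 had 0.20, 0.08, 0.13 and 0.22. The strain groups did not overlap in either genotype.

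The fitted change of Pcdhgb8 from FVB to B6GFP was -3.19 log2 units in wild type (SE 0.130, limma adjusted p = 6.92e-14), a level 9.1-fold lower with a 95% interval of 7.55 to 11. In MommeD43 it was -3.23 (SE 0.153, limma adjusted p = 1.62e-12), or 9.35-fold lower with an interval of 7.5 to 11.7. Among all genes ordered by p it ranked 16 in wild type and 14 in MommeD43. It passed in each of the 28 alternative fits of either contrast, with changes from -3.3 to -2.39 in wild type and from -3.3 to -2.43 in MommeD43. Within batch 1, the only batch with both strains, the change was -3.19 in wild type and -3.23 in MommeD43. The reported fit has batch as a term and so drew its strain change mainly from batch 1 too. These values are therefore no separate check.

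In B6GFP cells Pcdhgb8 was close to 1 CPM, with a mean over lines of 1.161 in B6GFP_WT and 1.115 in B6GFP_MD43, against 10.686 in FVB_WT and 10.031 in FVB_MD43. The part in this difference of the pseudogene annotation, of reads of FVB/NJ mapped to a C57BL/6J reference, or of the 9.18% of shared sequence was not tested.

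Calls were common in the strain contrasts, so counts are read against that background. In wild type 1 of 7 members was lower and 0 were higher, beside 23.2% of all 14922 genes lower and 41.1% called in either direction. In MommeD43 again 1 of 7 was lower, beside 19.6% of genes lower and 34.3% in either direction. Pcdhgb8 was also the single member whose lines did not overlap between strains, which 9.38% of genes showed in the lower direction in wild type and 11.5% in MommeD43. In the higher direction 0 of 7 members were without overlap, beside 6.5% of genes in wild type and 9.85% in MommeD43.

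The other 6 members did not pass in either strain contrast. Their fitted changes in wild type lay between -0.16 for Pcdhga9 and 0.23 for Pcdhga10, with adjusted p from 0.276 to 0.981. For Pcdhgb6 the change was 0.00 with a 95% interval of -0.24 to 0.25, and for Pcdhgb7 it was -0.04 with an interval of -0.23 to 0.15. Changes within these intervals were not excluded.

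In MommeD43 the member nearest to the threshold after Pcdhgb8 was Pcdhga11. Its lines had 3.66, 3.42, 3.20 and 3.49 log2 CPM in FVB_MD43 replicates 1, 2, 4 and 5, and 3.09, 3.81, 3.10 and 2.74 in B6GFP_MD43 replicates 1 to 4. The groups overlapped, since B6GFP_MD43 replicate 2 was the highest of all 8 lines. The change was -0.44 (SE 0.172, limma adjusted p = 0.056), and it passed in 13 of 28 alternative fits, with adjusted p from 3.94e-14 to 0.689. Pcdhga12 was lower by 0.27 in B6GFP_MD43, with an interval of -0.62 to 0.08 (limma adjusted p = 0.225), and it passed in 3 of the 28.

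**Figure D2:**
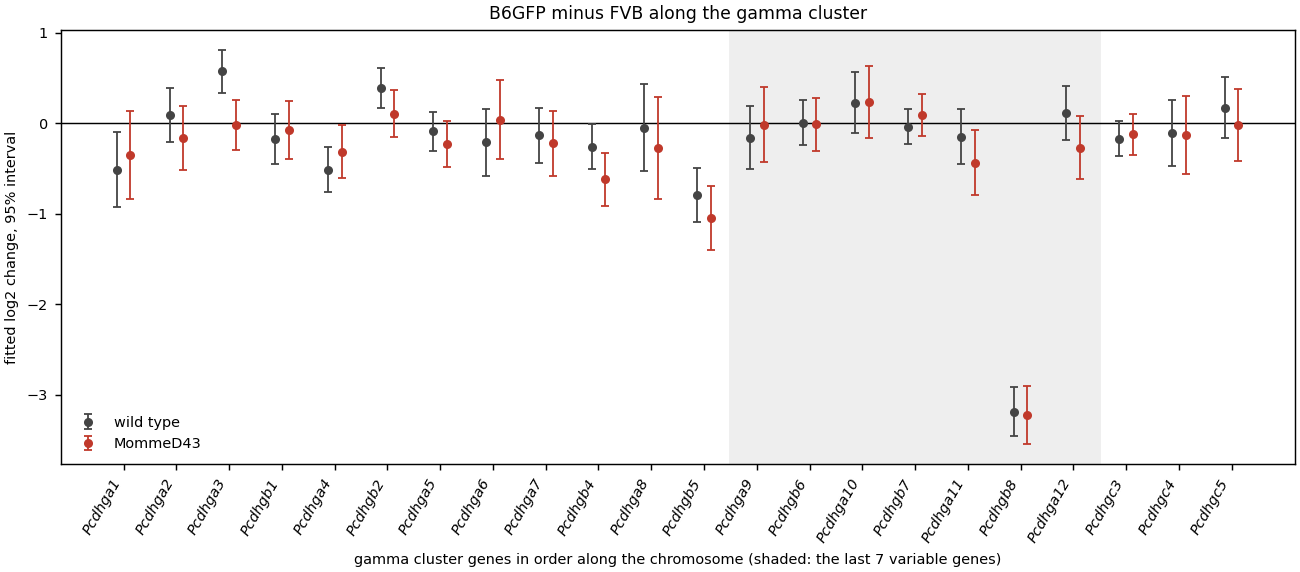
Fitted log2 change of B6GFP against FVB (vertical axis) with its 95% interval for the 22 gamma genes in chromosomal order (horizontal axis), in wild type and in MommeD43, with the 7 members shaded. Pcdhgb8 stands at -3.19 and -3.23, and the other gamma genes lie between -1.05 and 0.57.

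Of the 12 variable genes upstream of Pcdhga9, 2 were higher and 3 were lower in B6GFP_WT, beside 17.9% and 23.2% of all genes. Pcdhga3 was higher by 0.57 (limma adjusted p = 0.000389), and Pcdhgb5, the direct upstream neighbour of Pcdhga9, changed by -0.79 (adjusted p = 0.000171). Pcdhga4 changed by -0.52 (limma adjusted p = 0.0017). In MommeD43 2 of 12 were lower and 0 were higher, beside 19.6% and 14.7% of all genes. The 2 were Pcdhgb5, which changed by -1.05 (limma adjusted p = 7.05e-05), and Pcdhgb4, by -0.62 (limma adjusted p = 0.00192). None of the 3 C-type genes passed in either contrast by limma, and 0 of 3 had an unadjusted p under 0.05. The gamma genes outside the members that passed were thus higher or lower in wild type and lower in MommeD43, all by less than Pcdhgb8. Without quality weights 1 of these 15 genes passed in each genotype, beside 1259 of all 14922 genes in wild type and 1017 in MommeD43.

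Among 14 known regulators of protocadherin promoters or partners of Smchd1, 5 were higher and 2 lower in B6GFP_WT. Of all genes 17.9% were higher and 23.2% lower there. In B6GFP_MD43 it was 3 higher and 2 lower, beside 14.7% and 19.6% of all genes. The 2 lower in each genotype were Smchd1 and Lrif1. Smchd1 changed by -0.22 in wild type and -0.28 in MommeD43 (limma adjusted p = 0.0143 and 0.0102). Lrif1 changed by -0.25 and -0.34 (limma adjusted p = 0.0298 and 0.0186). Smc1a and Smc3, core subunits of cohesin, were higher by 0.22 and 0.19 in wild type (limma adjusted p = 0.000544 and 0.00295). Stag1, a cohesin subunit, was higher by 0.18 (adjusted p = 0.00637). In MommeD43 the 3 with the smallest p were Stag1 at 0.25 (adjusted p = 0.00223), Smc1a at 0.22 (adjusted p = 0.00255) and Smc3 at 0.22 (adjusted p = 0.00463). Without quality weights 0 of the 14 passed in either genotype, beside 1259 of all 14922 genes in wild type and 1017 in MommeD43.

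The strains also differed in markers of cell state. All 5 astrocyte markers were lower in B6GFP in both genotypes, with median changes of -1.70 in wild type and -2.14 in MommeD43, and the summed level of the list was 9.93 to 10.45 log2 CPM in FVB_WT and 9.48 to 10.11 in B6GFP_WT. Their part in the strain differences of the members was not tested.

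Turning to MommeD43, Pcdhga12 showed the largest difference of the 7 in both strains. In FVB_WT its line means were 2.31, 1.75, 1.52, 1.91 and 2.25 log2 CPM for replicates 1 to 5, and in FVB_MD43 3.17, 2.62, 3.08 and 2.69 for replicates 1, 2, 4 and 5. In B6GFP_WT they were 1.80, 1.94, 1.80 and 1.67, and in B6GFP_MD43 2.50, 3.11, 2.64 and 2.30, for replicates 1 to 4. All MommeD43 lines were above all wild-type lines of their strain, and FVB_WT replicate 1 was just above the lowest B6GFP_MD43 line.

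The fitted change of Pcdhga12 was 1.02 in FVB (SE 0.125, 95% interval 0.76 to 1.28), or 2.03-fold, and 0.64 in B6GFP (SE 0.163, interval 0.30 to 0.98), or 1.56-fold. The plain differences of the group means were 0.943 and 0.832. By batch the fitted change was 1.2 in batch 1 and 0.758 in batch 2 for FVB, and 0.668 in batch 1 and 0.848 in batch 3 for B6GFP. Leaving out 1 line at a time gave 0.892 to 1.37 in FVB and 0.592 to 0.747 in B6GFP.

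Pcdhgb7, which lies 3 genes upstream of Pcdhga12, was higher by a smaller amount. Its lines had 2.38, 2.26, 2.39, 2.24 and 2.42 log2 CPM in FVB_WT and 2.75, 2.69, 2.94 and 2.76 in FVB_MD43. In B6GFP_WT they had 2.35, 2.21, 2.31 and 2.45, and in B6GFP_MD43 2.756, 3.030, 2.995 and 2.451, for replicates 1 to 4. The FVB groups were apart, while B6GFP_MD43 replicate 4 lay at the level of B6GFP_WT replicate 4, 2.451 in both. The fitted change was 0.38 in FVB (SE 0.0819, interval 0.21 to 0.55) and 0.51 in B6GFP (SE 0.107, interval 0.29 to 0.73).

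Pcdhgb6 had a mean of 3.36 ± 0.16 log2 CPM in FVB_WT and 3.70 ± 0.17 in FVB_MD43 (SD over 5 and 4 lines), and 3.39 ± 0.17 in B6GFP_WT and 3.69 ± 0.28 in B6GFP_MD43 (4 lines each). All 4 MommeD43 lines of each strain were above their wild-type mean, but the groups overlapped, by a narrow margin in FVB, where the highest wild-type line had 3.54 and the lowest MommeD43 line 3.53. The fitted change was 0.32 in FVB (interval 0.10 to 0.54) and 0.30 in B6GFP (interval 0.02 to 0.59). Without B6GFP_MD43 replicate 3 the B6GFP value was 0.14, and without B6GFP_MD43 replicate 1 it was 0.577.

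Pcdhga10, which lies between Pcdhgb6 and Pcdhgb7, went the other way. It had 2.18 ± 0.44 log2 CPM in FVB_WT and 1.70 ± 0.34 in FVB_MD43, and 2.21 ± 0.13 in B6GFP_WT and 1.93 ± 0.10 in B6GFP_MD43. None of the 4 MommeD43 lines of either strain was above its wild-type mean, and the groups overlapped in both. In B6GFP the margin was narrow, with the lowest wild-type line at 2.013 and the highest MommeD43 line at 2.019. The fitted change was -0.28 in each strain, with intervals of -0.58 to 0.02 in FVB and -0.66 to 0.11 in B6GFP. In batch 2 alone the FVB value was -0.762, against -0.175 in batch 1, and without FVB_MD43 replicate 2 it was -0.126.

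The remaining 3 members had fitted changes whose intervals held 0 in both strains. For Pcdhga9 the fitted values were -0.06 (FVB) and 0.08 (B6GFP), and for Pcdhgb8 0.02 and -0.02. Pcdhga11 had a value of 0.04 in FVB (interval -0.23 to 0.31) and -0.25 in B6GFP (interval -0.60 to 0.10). Its sign in FVB depended on the weighting, with -0.237 when libraries were weighted equally, and in B6GFP it was -0.342 in batch 1 and 0.143 in batch 3. Pcdhga9 had tight line means in B6GFP, at 1.20 to 1.31 log2 CPM in B6GFP_WT and 1.32 to 1.36 in B6GFP_MD43. By lines these groups did not overlap, although their means differed by 0.0933. Single libraries did overlap, at 1.004 to 1.499 in B6GFP_WT and 1.290 to 1.420 in B6GFP_MD43. The SD between repeats of a line was 0.284 for this gene.

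Without overlap between lines, 2 of 7 members were higher in FVB_MD43 (Pcdhgb7 and Pcdhga12), beside 0.469% of all genes, and 2 of 7 in B6GFP_MD43 (Pcdhga9 and Pcdhga12), beside 0.757%. In the lower direction it was 0 of 7 in both strains, beside 0.576% of genes in FVB_MD43 and 0.469% in B6GFP_MD43. Because these contrasts chose the members, nothing is read from the counts. The median change over the members was 0.04 in FVB and 0.08 in B6GFP, and over all genes it was 0.01 in each.

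**Figure D3:**
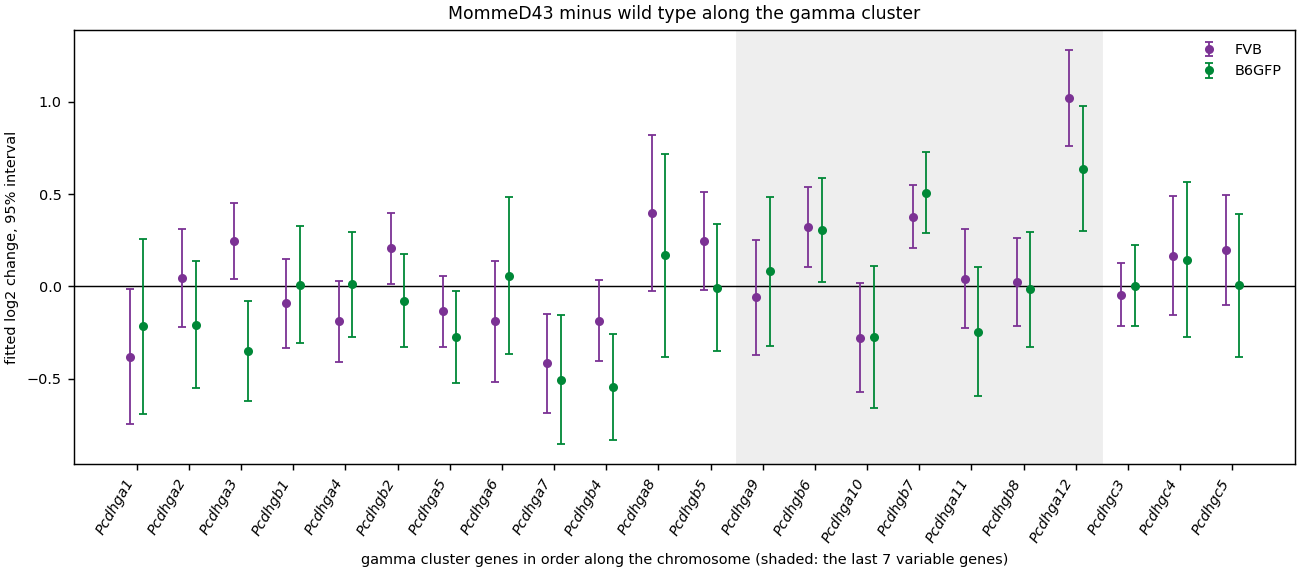
Fitted log2 change of MommeD43 against wild type (vertical axis) with its 95% interval for the 22 gamma genes in chromosomal order (horizontal axis), in FVB and in B6GFP, with the 7 members shaded. Pcdhgb6, Pcdhgb7 and Pcdhga12 lie above 0 in both strains, with Pcdhga10 at -0.28 among them, and Pcdhga12 has the highest value of the cluster at 1.02 and 0.64.

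The strain difference of the MommeD43 change, as B6GFP minus FVB, had a 95% interval that held 0 for all 7 members. It was -0.38 for Pcdhga12 (interval -0.81 to 0.05), -0.29 for Pcdhga11 (interval -0.73 to 0.15) and 0.14 for Pcdhga9 (interval -0.37 to 0.65). For Pcdhgb7 it was 0.13 (interval -0.15 to 0.41), and for Pcdhgb6, Pcdhga10 and Pcdhgb8 it was -0.02, 0.01 and -0.04. Strain differences within these intervals were not excluded with these lines. Without FVB_MD43 replicate 2 the value for Pcdhga12 was -0.709.

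Upstream of the members, 0 of the 12 variable genes were called by limma in either MommeD43 contrast. Of all 14922 genes 0.0737% were called in FVB (0.0201% higher and 0.0536% lower) and 0% in B6GFP. An unadjusted p under 0.05 was found in 4 of the 12 in each strain, beside 6.86% of all genes in FVB and 2.14% in B6GFP. In FVB these were Pcdhga3 (0.25) and Pcdhgb2 (0.21), which were higher, and Pcdhga1 (-0.38) and Pcdhga7 (-0.42), which were lower. In B6GFP they were Pcdhga3 (-0.35), Pcdhga5 (-0.28), Pcdhga7 (-0.51) and Pcdhgb4 (-0.55), all lower. Of the 12, 5 had a value above 0 in FVB and 4 in B6GFP. Their median change was -0.11 in FVB and -0.14 in B6GFP. The 3 C-type genes had medians of 0.16 and 0.01, and Pcdhgc3, the nearest gene downstream of Pcdhga12, had -0.05 (interval -0.21 to 0.12) in FVB and 0.00 (interval -0.22 to 0.22) in B6GFP. By limma 0 of the 14 regulators were called, with 0 at an unadjusted p under 0.05 in either strain. Of the 33 marker genes 0 were called, and 2 in FVB and 0 in B6GFP had an unadjusted p under 0.05.

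Together the 7 genes made up 50.481 CPM in FVB_WT and 54.260 in FVB_MD43, and 36.983 in B6GFP_WT and 43.468 in B6GFP_MD43, as means over lines. On the log2 scale the sums were 5.64 ± 0.24, 5.76 ± 0.13, 5.21 ± 0.07 and 5.43 ± 0.25. The share of Pcdhgb8 in the sum was 21.1% ± 1.36 in FVB_WT and 3.14% ± 0.744 in B6GFP_WT, and that of Pcdhga12 went from 7.79% ± 1.13 to 13.8% ± 1.65 with MommeD43 in FVB and from 9.5% ± 1.15 to 14.51% ± 1.37 in B6GFP. Pcdhga10 went from 9.13% ± 1.33 to 6.05% ± 0.982 in FVB and from 12.5% ± 0.635 to 8.94% ± 1.34 in B6GFP.

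**Figure D4:**
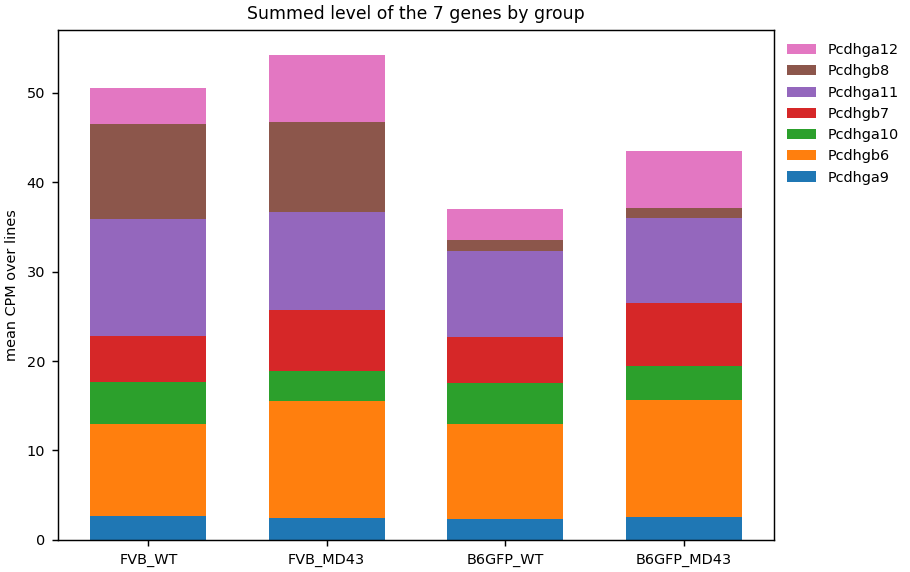
Mean CPM over lines of the 7 genes (vertical axis), stacked for each of the 4 groups, from Pcdhga9 at the bottom to Pcdhga12 at the top; no error is drawn. The stack is 50.481 CPM high in FVB_WT and 36.983 in B6GFP_WT, where the band of Pcdhgb8 is 10.686 and 1.161, and the band of Pcdhga12 is wider in both MommeD43 groups.

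Whether neighbours moved together was asked first of the MommeD43 changes. The 7 members in order form 6 neighbouring pairs, of which 3 had fitted changes of the same sign in FVB and 2 in B6GFP. Differences of group means gave 1 and 2 of 6. The 3 members above 0 throughout, Pcdhgb6, Pcdhgb7 and Pcdhga12, are not neighbours of each other, since Pcdhga10 separates the first pair and Pcdhga11 and Pcdhgb8 separate the second.

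It was asked next of the lines within groups, as the correlation of the deviations of line means from their group mean over the 17 lines. All 6 neighbouring pairs had a Pearson r above 0. It was 0.556 for Pcdhgb7 and Pcdhga11 (rho = 0.446, permutation p = 0.106 and 0.126), 0.479 for Pcdhgb6 and Pcdhga10 (rho = 0.522, permutation p = 0.0384 and 0.0339) and 0.477 for Pcdhga10 and Pcdhgb7 (rho = 0.713, permutation p = 0.00403 and 0.00042). It was 0.383 for Pcdhga9 and Pcdhgb6 (rho = 0.213, permutation p = 0.0956 and 0.392), 0.225 for Pcdhgb8 and Pcdhga12 (rho = 0.208, permutation p = 0.392 and 0.419) and 0.0557 for Pcdhga11 and Pcdhgb8 (rho = -0.223, permutation p = 0.82 and 0.413). Adjusted over all 231 pairs of gamma genes, 0 of the 21 member pairs passed by r and the pair of Pcdhga10 and Pcdhgb7 passed by rho (permutation, adjusted p = 0.0503 and 0.0203), beside 13 (5.63%) of all 231 pairs by r and 6 (2.6%) by rho. The permutations kept the groups but not the batches. For Pcdhga10 and Pcdhgb7 r was 0.58 within batch 1, 0.917 within batch 2 and 0.353 within batch 3, and without batch 2 it was 0.284. The values within a batch are over single libraries, and the others are over line means. Batches 2 and 3 held 3 libraries in each of their groups, so values within them rest on few libraries.

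Without the 2 lines farthest from the median of the upstream gene, r was 0.451 for Pcdhga10 and Pcdhgb7 and 0.578 for Pcdhgb6 and Pcdhga10. It fell to 0.17 for Pcdhgb7 and Pcdhga11 and to 0.137 for Pcdhga9 and Pcdhgb6. Leaving out those lines narrows the range of the upstream gene, which by itself can lower r, so nothing is concluded from the fall. For the pairs of Pcdhgb8 it was 0.214 with Pcdhga12 and -0.13 with Pcdhga11.

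Genes farther apart had a higher mean r than neighbours, and this difference was not tested. The mean r was 0.363 over the 6 neighbouring pairs, 0.546 over the 5 pairs that are 2 steps apart and 0.433 over the 10 pairs at 3 or more steps, and these pairs share genes and libraries. The highest r of any member pair was 0.819, for Pcdhga9 and Pcdhga10, which are 2 steps apart (rho = 0.62, permutation p = 0.00919 and 0.054, adjusted p = 0.063 and 0.209), and it was 0.81 without the 2 farthest lines. Pairs of the same subfamily had a mean of 0.497 (9 pairs) and pairs of different subfamilies 0.397 (12 pairs). Because the subfamilies alternate along the members, all neighbouring pairs were of different subfamilies and all pairs 2 steps apart of the same one. Distance and subfamily therefore cannot be told apart between neighbours and pairs 2 steps apart. The other 15 neighbouring gamma pairs had a mean of 0.454 and all 231 gamma pairs 0.397, and consecutive genes of the genome with means of 1 to 4 log2 CPM had 0.17 (813 pairs).

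The correlations differed between batches, a difference that was not tested. Over the single libraries of batch 2, which were the shallowest, the mean r of the 6 neighbouring pairs was 0.634. Over those of batch 1 it was 0.29, and over those of batch 3 it was 0.248. Over line means it was 0.177 without batch 2 and 0.262 without FVB_WT replicate 5. Batches 2 and 3 held 3 libraries in each of their groups, so values within them rest on few libraries. Batch 2 held FVB alone, so its depth, batch and strain cannot be told apart.

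**Figure D5:**
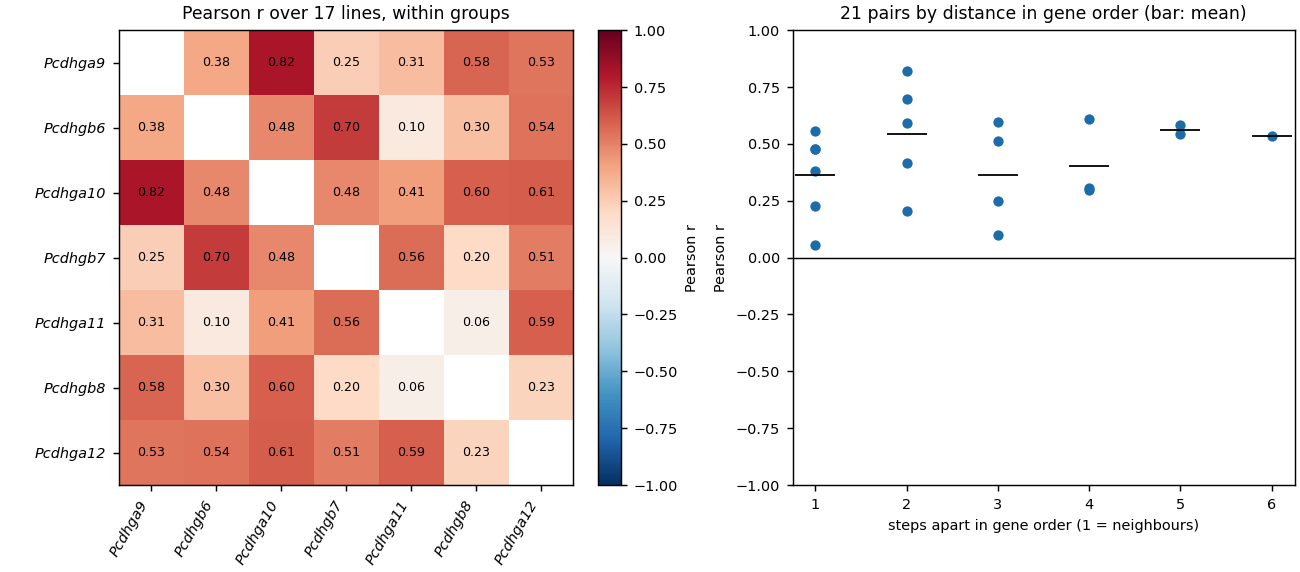
Left, Pearson r between the 7 genes over 17 lines after subtracting group means, as colour and number. Right, the same 21 values (vertical axis) against the distance of the 2 genes in gene order (horizontal axis), with the mean at each distance as a bar; neighbours have a mean of 0.363 and pairs 2 steps apart 0.546.

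The spread behind these values differed between members. Among the 5 lines sequenced in 2 batches, the SD between repeats was 0.0925 log2 units for Pcdhga12 and 0.092 for Pcdhgb7, against an SD between lines within groups of 0.288 and 0.154. For Pcdhgb8 it was 0.325 against 0.242, for Pcdhga9 0.284 against 0.255 and for Pcdhgb6 0.217 against 0.197. The lines of these 3 genes therefore differed by about as much as repeats of 1 line, while those of Pcdhga12 differed by more.

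The genes most like 6 of the members over the lines were all outside the cluster. Among 12856 genes with a mean of at least 0 log2 CPM, the highest r was 0.98 for Pcdhga10 (with Snx24), 0.935 for Pcdhgb7 (with Tafa4) and 0.921 for Pcdhgb8 (with Ptpdc1). It was 0.897 for Pcdhga12 (with Farp1), 0.852 for Pcdhgb6 (with Gm19592) and 0.832 for Pcdhga9 (with Tmem51). The next 2 were Cltb and Unc80 for Pcdhga10, Nes and Lrrc4c for Pcdhgb7, Pkd2l2 and Zfp28 for Pcdhgb8, Slc36a4 and Eif3l for Pcdhga12, Snx8 and Elmo1 for Pcdhgb6, and Scd4 and Dll1 for Pcdhga9. The best placed gamma gene ranked 6 for Pcdhga9 (Pcdhga10), 39 for Pcdhgb8 (Pcdhgb2), 114 for Pcdhgb6 (Pcdhgb7) and 129 for Pcdhga10 (Pcdhga9), and it ranked 190 and 790 for Pcdhga12 and Pcdhgb7. With 17 lines and this many genes, values of this size are given as a description only.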

How the data were processed

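The authors trimmed reads with TrimGalore 0.4.4, used HISAT2 2.0.5 for mapping to GRCm38.p6, and took limma 3.40.6 with edgeR for the analysis. The deposited values are log2 CPM of 14922 genes, which the authors had corrected for batch with the repeated lines, with sex and strain in their model. The counting tool and annotation are not given in the sources used here. The values are not counts. On the linear scale, low values were measured from a gene's lowest value in a batch, for genes where libraries tied at it. Of these, 3143 of 3143 were whole multiples of 1 step of their library (tolerance 0.05). The steps gave relative depth, but no counts were recovered. How the correction treated strain is not stated, so strain differences may have been altered by it.

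The whole table was fitted by limma 3.58.1 (R 4.3.3). Terms were group and batch, libraries carried array quality weights between 0.1012 and 4.895, a mean-variance trend was allowed, and line entered as a block with consensus correlation 0.0831. Benjamini-Hochberg adjustment ran over every gene of the table, and calls were made at 0.05. The code was tested on simulated data. Fitted changes weight libraries unequally and can differ from differences of group means, which are over lines with SD over lines. Correlations used 100000 two-sided permutations of lines within groups and were adjusted over 231 gamma pairs. The permutation p-values measure the spread between lines from separate embryos. The limma p-values and intervals rest on libraries, with repeats of a line tied only by the consensus correlation shared by all genes. They therefore mix the spread between lines with that between repeats. Where repeats were closer than lines, as for Pcdhga12 (SD 0.0925 against 0.288), they may be too narrow or too small. Repeats were not closer than lines for Pcdhgb8, Pcdhga9 and Pcdhgb6. Positions come from GENCODE M21 and RefSeq, both of GRCm38.p6.

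The members and lists were chosen with earlier results of these data known. Other gamma genes, regulators and markers were named where they passed, at most 3 per list and contrast by smallest p. Regulators that were lower in the strain contrasts were named as well. So were upstream gamma genes with an unadjusted p under 0.05 in a MommeD43 contrast. The 3 genes with the highest correlation were named for each member. Exon sequences served only to count shared 50-base stretches, and promoter sequences were not used here. The genes most like Pcdhga11 are not reported here.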

Additional observations from a re-analysis of the deposited data

Results flagged for a closer look

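A single line stood apart from its group in 2 of the 28 sets of line means (7 genes in 4 groups), by the gap to its nearest neighbour relative to the group's range. Chance gives about 1 in 20, and both were in Pcdhga9. In FVB_MD43 replicate 4 the level was 1.63 log2 CPM, above the other 3 lines at 1.15 to 1.23. In B6GFP_MD43 replicate 2 it was 1.32, below the other 3 lines at 1.355 to 1.358, a group whose SD over lines was 0.019. That gap is far smaller than the SD of 0.284 between repeats of a line for Pcdhga9.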

How the results depend on the processing

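Pcdhgb8 kept its call and direction in both strain contrasts in every fit run. The count of members called in wild type was 1 throughout. In MommeD43 it was 3 with the mean of each line's libraries, 2 without batch 2, 7 with all 24 columns (where the 2 columns equal to a group mean were kept) and 1 to 3 when 1 line was left out (3 without FVB_MD43 replicate 2), and the cause was not tested. Of all 14922 genes, 13991 were called in this contrast with all 24 columns, 6643 with line means and 4650 without batch 2. When 1 line was left out it was 4644 to 8179 of all genes, and 6000 without FVB_MD43 replicate 2. The member counts are read against these. In FVB 11 genes of the table were called with MommeD43 in the reported fit, 1 without quality weights, 1 without batch 2, 0 in batch 1 or batch 2 only, 3 on log2(CPM + 1), 19 after centring, 510 with all 24 columns and 3 to 976 when 1 line was left out (976 without FVB_MD43 replicate 2). In B6GFP it was 0, 480 with all 24 columns, 107 without B6GFP_MD43 replicate 1 and 139 without B6GFP_MD43 replicate 3. The strain difference of the change had 0, 61 with all 24 columns and up to 12 when 1 line was left out (12 without B6GFP_MD43 replicate 1). For the strain contrasts the number was 6132 in wild type and 1259 without quality weights, and 5124 and 1017 in MommeD43.

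Of the other 15 gamma genes, 1 was called without quality weights in each genotype, and in MommeD43 14 with all 24 columns, 1 in batch 1 only and 2 to 8 when 1 line was left out. Of the regulators, in wild type 0 were called without quality weights, 3 with line means, 3 in batch 1 only and 2 to 7 when 1 line was left out. In MommeD43 0 were called without quality weights, 9 with line means, 12 with all 24 columns, 1 in batch 1 only and 4 to 9 when 1 line was left out. Of all 14922 genes, 5095 were called in batch 1 only in wild type and 3596 in MommeD43. In wild type it was 5319 with line means and 4014 to 6400 when 1 line was left out. The other counts over all genes are given above.

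Members near 0 changed sign. In wild type Pcdhga9 was 0.047 with line means (-0.336 to 0.053 without 1 line), Pcdhgb6 -0.00691 among genes above 1 CPM in at least 4 libraries (-0.077 to 0.102), Pcdhgb7 0.035 after centring each library on its median (-0.099 to 0.039) and Pcdhga12 -0.111 without quality weights (-0.0092 to 0.161). In MommeD43 Pcdhga9 was 0.011 without weights, 0.144 with line means, 0.069 with all columns, 0.043 after centring, 0.033 in batch 1 only and 0.027 without batch 2 (-0.091 to 0.158 without 1 line). Pcdhgb6 was 0.030 without weights, 0.0003756 without the line block, 0.092 with all columns, 0.063 after centring and 0.047 in batch 1 only (-0.178 to 0.287).

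The replicate numbers did not pair the lines: correlations of same-numbered deviations were -0.484 to 0.138. Pairing by line name or litter was not tested. A block on the number shared by all groups, chosen after seeing the data, gave -0.032 for Pcdhgb6 and -0.022 for Pcdhga12 in wild type, 0.072 for Pcdhga9 and 0.0005246 for Pcdhgb6 in MommeD43, and 1 and 2 members called. Within strains the block gave median MommeD43 changes of -0.0064 in FVB and 0.027 in B6GFP. It moved no count of calls over all genes by more than 1.5 times, apart from 2 against 0 in B6GFP.

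The median MommeD43 change of the members in FVB was -0.183 in batch 2 only. Of the members 1 of 7 was higher without overlap in B6GFP over single libraries, beside 0.101% of all genes. In the lower direction 1 of 7 was without overlap in B6GFP after centring and with all 24 columns. Of all genes 0.63% and 0.523% were so. The mean correlation of neighbours was 0.634 over the single libraries of batch 2. Over line means it was between 0.262 and 0.419 when 1 line was left out. Batch 2 only and batch 3 only hold 1 strain each and gave no strain contrast. Batch 2 was the shallowest and held FVB alone, and its part in the precision of the FVB values was not tested.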
